A study of Homo sapiens with 20 samples.

Results

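The transcriptional response of Panc1 cells to TGFβ was measured by poly(A) RNA-seq in cells that carried a control siRNA. Panc1 is an established human line from a pancreatic ductal carcinoma. The comparison set 3 libraries of cells given the control siRNA and 5 ng/ml TGFβ for 72 h (TGFβ libraries) against 3 libraries of cells given the control siRNA without TGFβ (siCont libraries). These 6 libraries were chosen by their labels from the 20 of the study, which also treated Panc1 and the lung adenocarcinoma line A549 with an siRNA against the zinc-finger gene KLF10 (siKLF10). All cells of both lines grew in the same medium with serum, and both groups compared here were transfected with the same control siRNA. The labels describe both lines as immortalized with SV40 large T antigen, which is not the usual account of Panc1 or A549. Whether the libraries of a group are separate cultures is not stated, and p-values hence reflect only how these libraries vary, possibly for technical reasons. Values of the 3 libraries of a group are given in the order A, B and C.

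TGFβ is a secreted cytokine that is held in the matrix in a latent form and released by integrins and proteases. It binds a pair of receptor kinases, TGFBR2 and TGFBR1, which phosphorylate SMAD2 and SMAD3. These join SMAD4, enter the nucleus and act on target genes together with other factors, among them AP-1. In epithelial and carcinoma cells, TGFβ is known for inducing the epithelial-to-mesenchymal transition, in which cells lose epithelial junctions and gain motility and matrix production, and for limiting growth in cells with an intact SMAD pathway. In pancreatic carcinoma it is also known as a driver of the dense fibrous stroma.

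The 6 libraries held 12683185 to 15063736 counts in genes, and 15723 to 16058 genes had a count. A count of 3 was worth 0.199 to 0.237 CPM, that is, counts scaled to the same total in every library. Levels below are CPM scaled by TMM factors and are not corrected for gene length. KRT19 and SOX9, genes of pancreatic ducts, were expressed, while the other 10 of 12 pancreatic markers, of exocrine and endocrine cells, were too low to test. The siCont libraries stood apart in one respect: a set of transcripts was present in them and scarce in the other 9 libraries of Panc1. KRT5, a keratin of basal squamous cells, had 9.52, 9.51 and 5.58 CPM in the TGFβ libraries, against 60.7, 21.8 and 22.3 CPM in the siCont libraries. In the other Panc1 libraries KRT5 had 5.34, 7.02 and 5.73 CPM with siKLF10 and TGFβ, against 6.08, 5.81 and 6.29 CPM with siKLF10. The siCont libraries were therefore the high ones, with siCont A far above siCont B and C. The same order was seen for the intestinal mucin MUC2, at 0.363, 0.559 and 0.884 CPM in the TGFβ libraries, against 25.3, 5.44 and 8.85 CPM in the siCont libraries, and for the protease inhibitor TFPI2, at 0.0727, 0 and 0.0680 CPM in the TGFβ libraries, against 9.21, 2.05 and 3.06 CPM in the siCont libraries.

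The excess of siCont A over siCont B and C, scaled by KRT5, MUC2 and CDKN2A, could supply at least 10% of the mean siCont level of 107 tested genes (0.810%). Of these 107 genes, 45 were called lower with TGFβ and 1 was called higher. They were picked for a high siCont A, which also enters that call, so the choice itself favours lower calls. Of the 45, 41 were not called when TGFβ was given after siKLF10, a comparison with 6 other libraries, and 4 were called lower there. Over all genes tested, 1535 of the 1995 called lower here were called lower there too. The part of this second profile in the TGFβ response of other genes was not tested beyond these values. The rule rests on the excess of siCont A, so it does not show that genes outside it are free of the profile. Summed over 18 keratinocyte markers, the level was 114, 119 and 109 CPM in the TGFβ libraries, against 252, 156 and 158 CPM in the siCont libraries, so the siCont libraries were higher and siCont A the highest. In bulk samples such as these, fewer cells of a type and less RNA per cell cannot be told apart. Of markers of other cell types, 4 of 5 tested fibroblast genes were called higher and none lower, among them FAP and COL3A1. The 1 endothelial gene tested, ESAM, rose (1.47), and of 4 haematopoietic genes LAPTM5 rose (1.75), CD14 and CD68 fell (−2.09 and −0.71) and ITGB2 was not called (−0.03). None of 8 lung markers was high enough to test. For some genes of the second profile, values without siCont A, after siKLF10 or both are given, and the others were not checked in this way in the text.

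**Figure D1:**
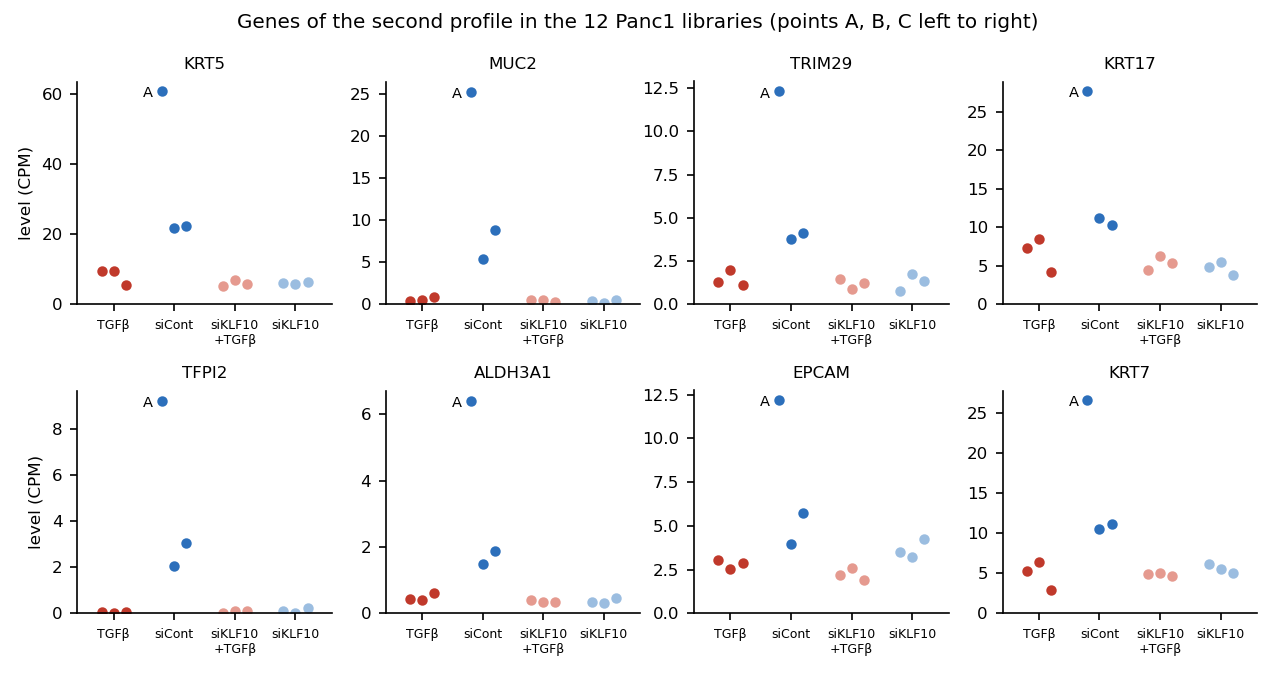
Level (CPM, linear scale from 0) of 8 genes of the second profile in the 12 Panc1 libraries, with points A, B and C from left to right in each group. SiCont A is the highest library for each gene, at 60.7 CPM for KRT5, and siCont B and C lie between it and the other 9 libraries, except siCont B for EPCAM, which lies among them.

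Of 13218 genes tested among 23368 in the files, 3839 (29%) changed with TGFβ at an adjusted p under 0.05 (edgeR's quasi-likelihood test, p-values adjusted by Benjamini-Hochberg). Such genes are said to be called, and to have risen or fallen. Higher levels with TGFβ were called for 14% of genes tested and lower levels for 15.1%. The median log2 fold change over all genes tested was −0.00485. Changes of at least 2-fold were called upwards for 355 genes (2.69%) and downwards for 417 genes (3.15%). At least 4-fold, the counts were 117 and 84, and at least 8-fold, they were 46 and 15. The 3 TGFβ libraries and the 3 siCont libraries did not overlap for 43.9% of genes tested. The median absolute log2 fold change of called genes was 0.48, so most calls were of changes well under 2-fold.

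**Figure D2:**
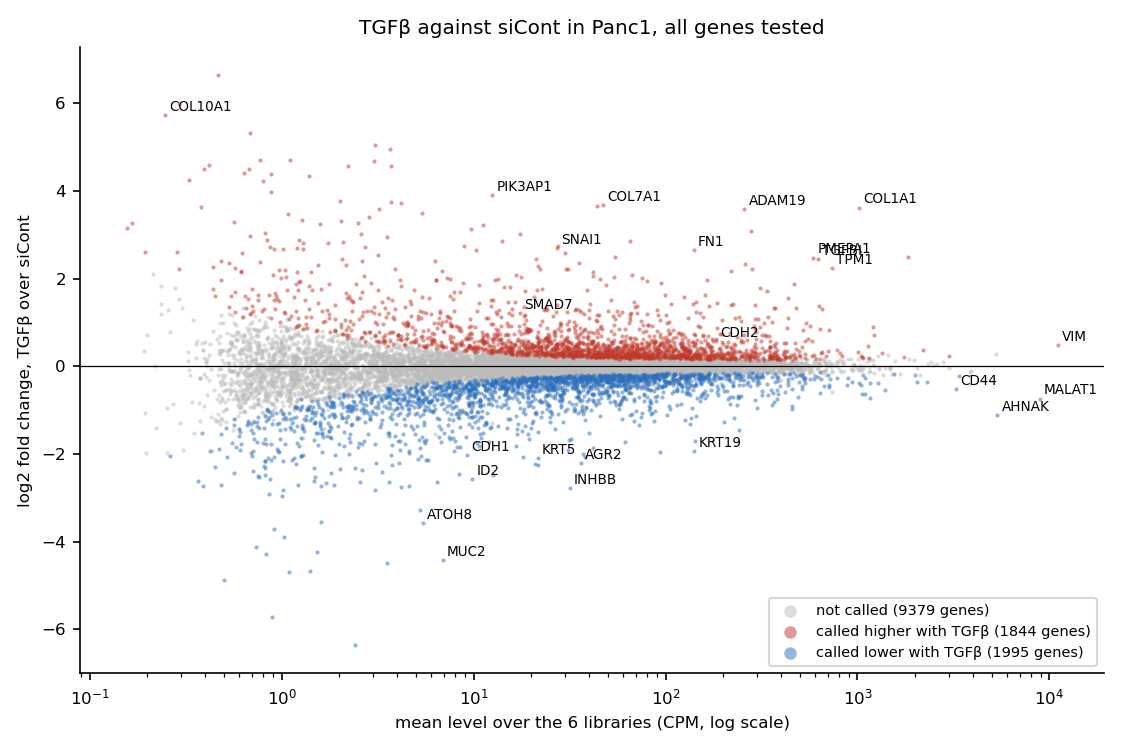
Log2 fold change of TGFβ over siCont against the mean level of the 6 libraries (CPM, log scale), 1 point for each of 13218 genes, coloured by call. Matrix and cytoskeletal genes such as COL1A1, TGFBI and TPM1 combine high levels with rises of over 4-fold, and VIM, MALAT1 and AHNAK lie at the right with changes of about 2-fold or less.

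Most listed genes of TGFβ ligands, latent binding proteins and activators were higher with TGFβ. The lists of genes used below hold 1441 distinct genes, of which 1184 had levels that could be tested, and each list is read against the 14% higher and 15.1% lower of all genes. The lists were chosen with earlier results of these data known, so their shares describe the members only. Of 10 tested genes of the ligands and latent binding proteins, 8 rose and 1 fell (median log2 fold change 0.88). LTBP2, a matrix protein named for its family of latent TGFβ binding proteins, stood at 639, 669 and 647 CPM in the TGFβ libraries, against 205, 226 and 233 CPM in the siCont libraries. The groups lay far apart, and LTBP2 rose by 1.56 ± 0.0604 on the log2 scale (adjusted p = 4.39e-15). ITGAV, the αv subunit of integrins that release TGFβ from its latent form, stood at 711, 692 and 647 CPM in the TGFβ libraries, against 262, 259 and 294 CPM in the siCont libraries. It rose by 1.33 ± 0.0858, while ITGB8, a β subunit that pairs with it, fell by 0.92 ± 0.204. All 3 ligand genes rose: TGFB2 by 1.09 ± 0.0629, TGFB3 by 1.02 ± 0.162 and TGFB1 by 0.73 ± 0.0819. TGFB1 stood at 113, 120.3 and 116 CPM in the TGFβ libraries, against 69.7, 68.5 and 71.7 CPM in the siCont libraries, with no overlap between the groups. LTBP3 rose by 1.18 ± 0.0763, LTBP4 by 0.42 ± 0.0963 and the activator thrombospondin THBS1 by 0.44 ± 0.0861, and LTBP1 was not called (0.05 ± 0.0629).

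Of 12 tested receptor genes, 4 rose and 2 fell (median 0.10). Only 2 rose without siCont B, TGFβ A or TGFβ C, and 1 fell without siCont A or TGFβ C. The signalling receptor TGFBR1 stood at 69.4, 65.6 and 67.8 CPM in the TGFβ libraries, against 70.9, 66.7 and 73.9 CPM in the siCont libraries, and the groups overlapped (−0.06 ± 0.0856, adjusted p = 0.65). TGFBR2, the ligand-binding kinase, stood at 345 ± 4.02 CPM with TGFβ and 309.8 ± 8.77 CPM with siCont (SD, n = 3 each), a rise of 0.15 ± 0.0551. That call was lost without siCont A or B or any 1 of the TGFβ libraries (adjusted p from 0.0682 to 0.121), and after siKLF10 TGFBR2 fell (−0.19 ± 0.0551). TGFBR3, the co-receptor betaglycan, stood at 3.63, 3.20 and 4.15 CPM in the TGFβ libraries, against 12.2, 10.95 and 10.8 CPM in the siCont libraries. It fell by 1.62 ± 0.162, and its highest TGFβ library was below its lowest siCont library. BMPR2, the type II receptor for bone morphogenetic proteins (BMPs), rose by 0.99 ± 0.0763, to 432 ± 21.7 CPM with TGFβ and 217 ± 17.9 CPM with siCont. The activin receptor ACVR1 rose by 0.39 ± 0.0766, and ACVR2B, ACVR1B, BMPR1A and BMPR1B were not called.

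Among 7 SMAD transducers, 2 rose and 2 fell, or 1 fell without siCont A or TGFβ C. SMAD3 stood at 609.6, 619 and 605 CPM in the TGFβ libraries, against 808, 794 and 854 CPM in the siCont libraries, a fall of 0.42 ± 0.0523 (adjusted p = 1.12e-06) that was of the same size after siKLF10 (−0.42 ± 0.0523). The BMP-linked SMAD1 and SMAD5 rose by 0.47 ± 0.0824 and 0.34 ± 0.0615. SMAD4, the shared partner that is deleted in many pancreatic tumours, stood at 71.8 ± 2.64 CPM with TGFβ and 67.8 ± 6.85 CPM with siCont and was not called (0.08 ± 0.0711). SMAD2 was not called either (−0.16 ± 0.0706, adjusted p = 0.105), but passed when the 6 libraries were fitted alone (adjusted p = 0.0398).

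Several negative regulators of the pathway rose. Of 13 tested, 8 rose and 2 fell (median 0.52), or 1 fell without siCont A or TGFβ C. PMEPA1, a membrane protein that binds receptor SMADs, stood at 977, 991 and 1016 CPM in the TGFβ libraries, against 180.2, 183 and 172 CPM in the siCont libraries. It rose 5.58-fold (2.48 ± 0.0592, adjusted p = 7.31e-19), with library values within a narrow band in each group. SKIL, which encodes the SMAD co-repressor SnoN, stood at 530.0, 513 and 501 CPM in the TGFβ libraries, against 163, 148 and 160.3 CPM in the siCont libraries and rose by 1.71 ± 0.0831. SMAD7, which blocks the receptors, stood at 25.3, 24.9 and 22.8 CPM in the TGFβ libraries, against 10.4, 9.85 and 11.1 CPM in the siCont libraries and rose by 1.22 ± 0.106. The ubiquitin ligases SMURF2 and SMURF1 rose by 0.80 ± 0.0646 and 0.68 ± 0.0583, and VASN, a TGFβ trap, by 0.99 ± 0.142. The co-repressors SKI (−0.11 ± 0.0735) and TGIF2 (−0.02 ± 0.0860) and the BMP-pathway inhibitor SMAD6 (−0.21 ± 0.0970) were not called.

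In the list of genes that TGFβ is known to act on directly, almost all members rose, which the choice of members with earlier results known favours. Of 18 tested, 17 rose and 1 fell (median 2.25, against −0.00485 for all genes), and the same 17 and 1 were called in those directions after siKLF10. The 1 fall was lost without siCont B, siCont C, TGFβ A or TGFβ C. JUNB, an AP-1 subunit, stood at 94.6, 90.6 and 92.6 CPM in the TGFβ libraries, against 14.7, 17.6 and 17.0 CPM in the siCont libraries and rose by 2.49 ± 0.123. The cytokine IL11 stood at 26.8, 26.6 and 21.2 CPM in the TGFβ libraries, against 2.87, 4.18 and 3.19 CPM in the siCont libraries and rose by 2.87 ± 0.165. PTHLH, the parathyroid hormone-related peptide that tumours use to resorb bone, stood at 19.2, 16.5 and 17.9 CPM in the TGFβ libraries, against 3.54, 2.76 and 2.20 CPM in the siCont libraries and rose by 2.66 ± 0.153. Outside that list, KLF10, the early response gene that gave the study its knockdown, stood at 192, 187 and 206 CPM in the TGFβ libraries, against 140.2, 137 and 130.3 CPM in the siCont libraries, a rise of 0.52 ± 0.0583 (adjusted p = 2.39e-07) without overlap.

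Promoters of the called genes were scanned for short motifs in the RefSeq windows of GRCh38.p14, which run from 250 bases before to 50 bases after each gene's start. Windows were matched by symbol for 9258 of the 13218 genes tested. The SMAD-binding letters CAGAC, on either strand, were present in 50.4% of the 248 windows of genes that rose at least 2-fold and in 44.4% of the 261 of genes that fell at least 2-fold, against 42.6% of all genes tested. The AP-1 letters TGANTCA were present in 8.87% and 6.90%, against 4.41%. The E-box CACCTG, which SNAI and ZEB factors bind, was present on either strand in 16.1% of windows of genes that rose and 27.2% of those of genes that fell, against 17.7% of all genes tested. The palindrome GTCTAGAC was present in 0.403% and 0%, against 0.162%. In all 27195 promoters of the table the shares were 45.0% for CAGAC, 7.73% for TGANTCA and 20.6% for the E-box. No motif searched contains another, and a match describes letters, not binding.

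Windows of 3 genes that rose and 3 that fell are shown, chosen after their values were seen, because each holds at least 2 matches. The first 3 are the windows of IL11 (chr19:55370414-55370713, minus strand), SMAD7 (chr18:48950916-48951215, minus strand) and MFAP2 (chr1:16981534-16981833, minus strand). Capitals mark every match, on either strand, to the SMAD-binding letters, the AP-1 letters or the E-box.
IL11: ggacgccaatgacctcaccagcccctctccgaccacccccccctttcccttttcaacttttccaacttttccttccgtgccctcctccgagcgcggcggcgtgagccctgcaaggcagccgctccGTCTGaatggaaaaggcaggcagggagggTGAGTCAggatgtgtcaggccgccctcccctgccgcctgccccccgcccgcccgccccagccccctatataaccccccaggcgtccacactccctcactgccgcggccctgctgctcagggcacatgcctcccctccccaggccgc
SMAD7: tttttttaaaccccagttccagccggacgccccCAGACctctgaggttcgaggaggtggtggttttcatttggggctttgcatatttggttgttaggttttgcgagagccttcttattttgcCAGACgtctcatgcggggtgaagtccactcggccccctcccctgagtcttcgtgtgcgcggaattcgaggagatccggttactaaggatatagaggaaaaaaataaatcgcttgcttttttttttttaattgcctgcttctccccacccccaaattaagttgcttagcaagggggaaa
MFAP2: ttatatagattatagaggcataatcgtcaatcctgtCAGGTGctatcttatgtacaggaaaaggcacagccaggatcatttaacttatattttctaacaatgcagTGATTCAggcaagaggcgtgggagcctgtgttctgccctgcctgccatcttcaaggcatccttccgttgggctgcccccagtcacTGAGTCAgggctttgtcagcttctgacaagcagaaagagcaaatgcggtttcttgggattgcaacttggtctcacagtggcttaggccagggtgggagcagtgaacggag

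The IL11 window holds GTCTG with its first base 125 bases before the start and TGAGTCA 96 bases before it, beside a 7.29-fold rise of the gene. The SMAD7 window holds CAGAC 217 and 128 bases before the start. The MFAP2 window holds TGATTCA 145 and TGAGTCA 60 bases before the start, and an E-box 214 bases before it, and MFAP2 stood at 23.1, 23.2 and 21.2 CPM in the TGFβ libraries, against 6.41, 6.54 and 6.26 CPM in the siCont libraries. The other 3 are the windows of ARHGEF16 (chr1:3454415-3454714, plus strand), TM7SF2 (chr11:65111622-65111921, plus strand) and ANXA3 (chr4:78551520-78551819, plus strand), marked in the same way.
ARHGEF16: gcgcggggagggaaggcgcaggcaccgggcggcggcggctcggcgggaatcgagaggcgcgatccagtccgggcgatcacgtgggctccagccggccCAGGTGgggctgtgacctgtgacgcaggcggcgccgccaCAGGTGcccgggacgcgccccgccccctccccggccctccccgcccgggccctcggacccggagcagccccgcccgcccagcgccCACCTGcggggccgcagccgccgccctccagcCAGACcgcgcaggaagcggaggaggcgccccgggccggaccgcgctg
TM7SF2: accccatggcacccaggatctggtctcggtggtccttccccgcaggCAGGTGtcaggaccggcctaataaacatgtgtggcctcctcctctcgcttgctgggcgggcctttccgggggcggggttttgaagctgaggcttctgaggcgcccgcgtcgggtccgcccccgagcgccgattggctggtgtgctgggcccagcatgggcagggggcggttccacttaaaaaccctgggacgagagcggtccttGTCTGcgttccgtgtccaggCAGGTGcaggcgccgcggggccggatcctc
ANXA3: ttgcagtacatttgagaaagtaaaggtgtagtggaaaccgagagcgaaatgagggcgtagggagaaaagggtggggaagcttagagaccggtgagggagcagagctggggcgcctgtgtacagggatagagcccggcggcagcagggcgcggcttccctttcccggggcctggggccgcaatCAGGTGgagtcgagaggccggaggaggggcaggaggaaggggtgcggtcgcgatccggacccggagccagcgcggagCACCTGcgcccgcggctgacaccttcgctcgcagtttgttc

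ARHGEF16, an exchange factor for small GTPases, holds 3 E-boxes, with first bases 153, 114 and 29 bases before the start, and stood at 2.62, 3.76 and 1.497 CPM in the TGFβ libraries, against 6.19, 7.41 and 7.39 CPM in the siCont libraries. TM7SF2, a sterol reductase, holds 2 E-boxes and stood at 4.22, 5.12 and 4.69 CPM in the TGFβ libraries, against 17.8, 14.6 and 17.3 CPM in the siCont libraries. ANXA3, an annexin, holds 2 E-boxes and stood at 2.69, 4.40 and 3.74 CPM in the TGFβ libraries, against 10.5, 11.03 and 9.65 CPM in the siCont libraries. The windows of ARHGEF16 and TM7SF2 also hold 1 match to CAGAC each. All 3 genes also fell after siKLF10 (−1.65 ± 0.244, −2.21 ± 0.145 and −1.91 ± 0.205).

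**Figure D3:**
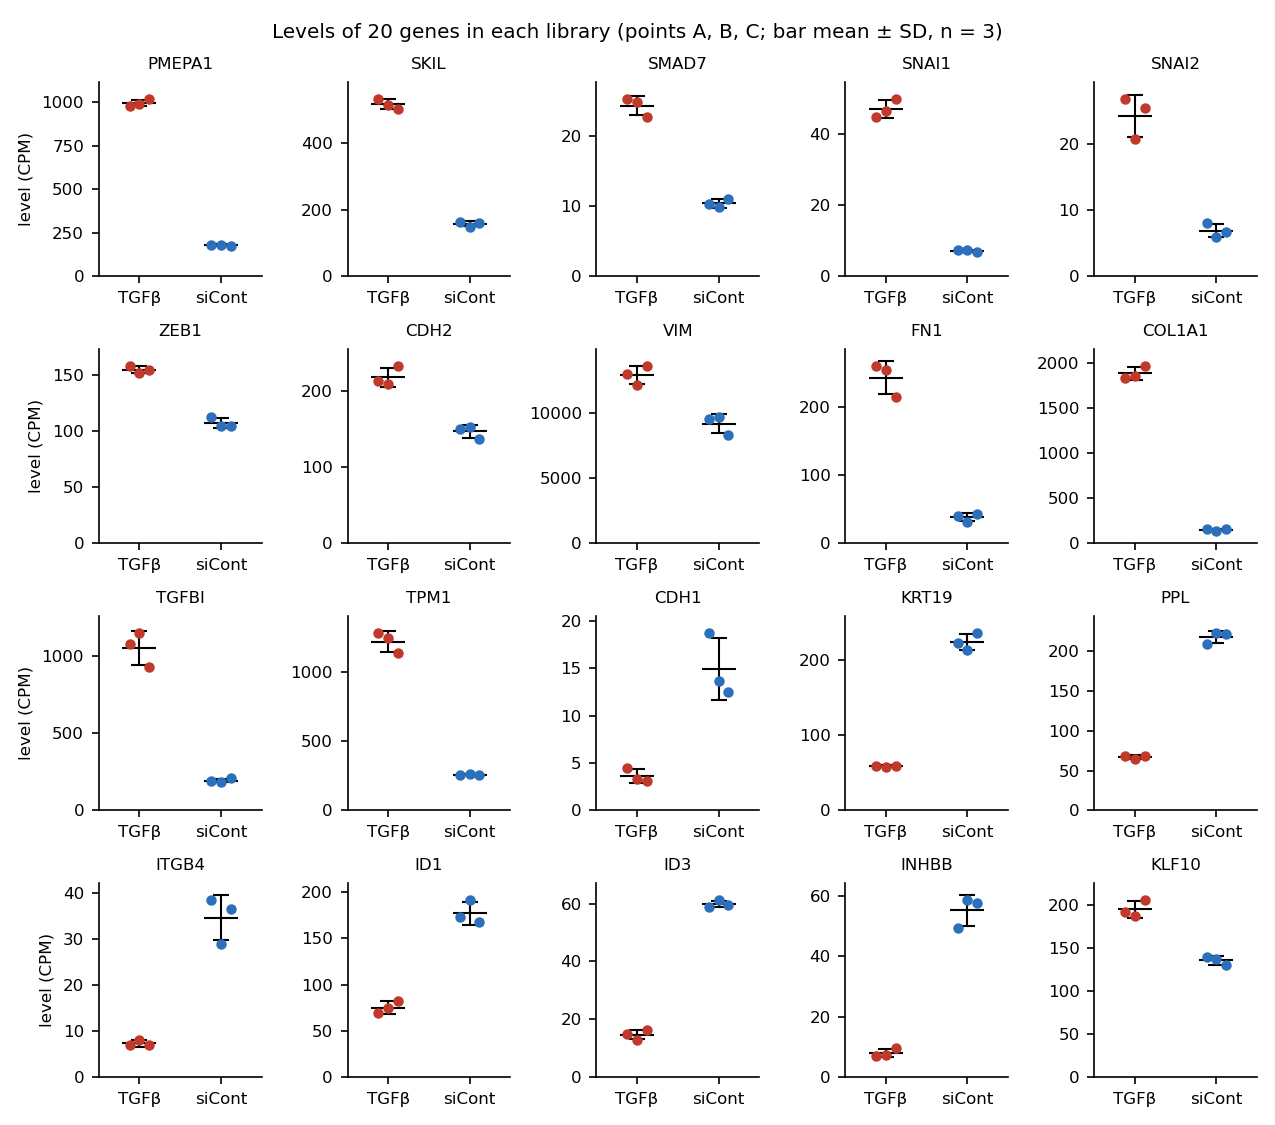
Level (CPM, linear scale from 0) of 20 genes in each library, TGFβ at the left and siCont at the right of each panel, with the mean and SD of 3 libraries. The groups do not overlap in any panel, from PMEPA1 and COL1A1, far higher with TGFβ, to ID3 and KRT19, far lower.

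The 4 ID genes and ATOH8, which are some of the known targets of the BMP branch, fell. ATOH8 was named for the size of its fall, and the activity of the BMP branch was not tested. The ID genes, which encode inhibitors of basic helix-loop-helix factors and are standard targets of BMP signalling, fell in all 4 cases. ID1 stood at 68.9, 74.3 and 82.2 CPM in the TGFβ libraries, against 173, 191 and 167 CPM in the siCont libraries, a fall of 1.23 ± 0.0951. ID3 stood at 15.1, 13.03 and 16.2 CPM in the TGFβ libraries, against 58.9, 61.1 and 59.6 CPM in the siCont libraries, a fall of 2.01 ± 0.144. ID2 stood at 3.05, 2.56 and 2.86 CPM in the TGFβ libraries, against 14.6, 15.9 and 20.2 CPM in the siCont libraries, a fall of 2.58 ± 0.156, and ID4, low in each library, fell by 2.50 ± 0.452. After siKLF10 the falls were called too, but that of ID1 was −0.28 there against −1.23 here. ATOH8, a helix-loop-helix gene known as a BMP target, had the second largest fall by the ranking used here, at 0.872, 0.879 and 0.748 CPM in the TGFβ libraries, against 8.10, 11.2 and 10.9 CPM in the siCont libraries (−3.59 ± 0.205, adjusted p = 3.64e-12).

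Of 18 tested BMP and activin ligands and their binding proteins, 5 rose and 5 fell. The rises included extracellular antagonists. NOG, which encodes the BMP trap noggin, stood at 13.6, 13.6 and 11.7 CPM in the TGFβ libraries, against 4.27, 4.18 and 3.53 CPM in the siCont libraries and rose by 1.70 ± 0.133. FSTL3, a follistatin-like activin trap, stood at 35.0, 35.1 and 29.4 CPM in the TGFβ libraries, against 10.4, 14.4 and 15.8 CPM in the siCont libraries and rose by 1.29 ± 0.134, and FSTL1 rose by 1.16 ± 0.0685. The falls were of ligands. INHBB, the βB subunit of activins and inhibins, stood at 6.98, 7.43 and 9.66 CPM in the TGFβ libraries, against 49.5, 58.6 and 57.8 CPM in the siCont libraries, a 6.85-fold fall. BMP4 fell by 0.69 ± 0.127, BMP8B by 0.82 ± 0.221 and the stress cytokine GDF15 by 1.48 ± 0.160. BMP6 (−0.15 ± 0.0789), GDF11 (0.10 ± 0.103) and TWSG1 (0.06 ± 0.0777) were not called.

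No tested factor of the mesenchymal transition fell, and no tested factor of epithelial identity rose. Of 13 tested factors of the transition, 6 rose and none fell (median 0.28). SNAI1, a zinc-finger repressor of E-cadherin, stood at 44.7, 46.5 and 49.7 CPM in the TGFβ libraries, against 7.29, 7.48 and 6.92 CPM in the siCont libraries. Each TGFβ library was far above each siCont library, a 6.502-fold rise. Its relative SNAI2 stood at 26.7, 20.6 and 25.3 CPM in the TGFβ libraries, against 8.03, 5.99 and 6.72 CPM in the siCont libraries, and the helix-loop-helix factor TCF4 at 30.2, 27.5 and 27.6 CPM in the TGFβ libraries, against 7.29, 5.99 and 7.39 CPM in the siCont libraries (2.04 ± 0.116). ZEB1 stood at 158, 152 and 155 CPM in the TGFβ libraries, against 112, 104 and 104.9 CPM in the siCont libraries, a rise of only 0.53 ± 0.0605 without overlap. SOX4 rose by 1.04 ± 0.0561 and the chromatin protein gene HMGA2 by 0.99 ± 0.0624, while ZEB2 (−0.08 ± 0.0808), TCF3 (0.04 ± 0.0686) and SOX9 (−0.08 ± 0.0589) were not called.

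Of 16 tested epithelial factors, 12 fell and none rose (median −0.91). Without the 4 of them that the second profile could supply, 9 of 12 fell, and without siCont A 10 of 16 did. GRHL3, a grainyhead factor of surface epithelia, stood at 25.4, 28.9 and 28.0 CPM in the TGFβ libraries, against 50.5, 52.2 and 61.0 CPM in the siCont libraries and fell by 0.99 ± 0.0938. ESRP2, a splicing factor of epithelial exons, stood at 5.45, 6.39 and 6.05 CPM in the TGFβ libraries, against 12.96, 14.7 and 15.5 CPM in the siCont libraries and fell by 1.27 ± 0.134. KLF4, a zinc-finger factor of differentiated epithelia, stood at 1.53, 2.08 and 1.77 CPM in the TGFβ libraries, against 5.38, 5.51 and 5.39 CPM in the siCont libraries and fell by 1.60 ± 0.194. LSR, a tricellular junction receptor, fell by 1.09 ± 0.104. All 4 also fell after siKLF10. The related ESRP1, a gene of the second profile, stood at 1.09, 0.719 and 0.204 CPM in the TGFβ libraries, against 2.95, 1.26 and 0.998 CPM in the siCont libraries. Its groups overlapped, its call was lost without siCont A (adjusted p = 0.26), TGFβ B (0.0629) or TGFβ C (0.149), and it was not called after siKLF10 (−0.09 ± 0.570).

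Most tight junction genes fell, and other junction classes changed in both directions. CDH1, which encodes E-cadherin, stood at 4.43, 3.36 and 3.13 CPM in the TGFβ libraries, against 18.7, 13.6 and 12.5 CPM in the siCont libraries. All TGFβ libraries were below all siCont libraries, and without siCont A, the highest, the log2 fold change was −1.84 against −2.03 with it. Of 10 tested cadherin and catenin genes 4 rose and 3 fell. CDH2, N-cadherin, rose by 0.57 ± 0.0656 and CDH6, K-cadherin, by 1.59 ± 0.108, with CDH6 at 32.2, 26.0 and 35.3 CPM in the TGFβ libraries, against 10.5, 10.2 and 10.4 CPM in the siCont libraries. JUP, plakoglobin of adherens junctions and desmosomes, stood at 91.8, 88.4 and 99.4 CPM in the TGFβ libraries, against 191, 173 and 177 CPM in the siCont libraries, a fall of 0.95 ± 0.0768.

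Of 17 tested tight junction and polarity genes, 14 fell and 2 rose (median −0.88). Of the 15 that the rule did not assign to the second profile, 12 fell and 2 rose, and after siKLF10 10 of 17 fell. LLGL2, a basolateral polarity protein, stood at 2.69, 3.44 and 3.74 CPM in the TGFβ libraries, against 13.3, 10.7 and 13.6 CPM in the siCont libraries, a fall of 1.93 ± 0.154. PARD6B, a subunit of the apical PAR complex, stood at 43.4, 46.0 and 48.8 CPM in the TGFβ libraries, against 109.8, 98.6 and 99.2 CPM in the siCont libraries and fell by 1.15 ± 0.0814. CXADR, a junctional adhesion receptor, stood at 21.7, 20.7 and 25.7 CPM in the TGFβ libraries, against 47.8, 45.3 and 49.5 CPM in the siCont libraries and fell by 1.06 ± 0.0952, and the claudin CLDN7, at low levels, fell by 1.03 ± 0.227. EPCAM and MAL2 also fell here (−1.37 ± 0.348 and −2.25 ± 0.408), but the second profile could supply 73.9% and 65.3% of their siCont levels, their values without siCont A were −0.79 and −1.75, and neither was called after siKLF10 (−0.71 ± 0.414 and −0.24 ± 0.603). The call of EPCAM was also lost when the 6 libraries were fitted alone (adjusted p = 0.0856).

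Among 11 desmosomal genes, 6 fell and 1 rose. PPL, periplakin, stood at 68.5, 64.0 and 68.8 CPM in the TGFβ libraries, against 208, 222 and 221 CPM in the siCont libraries, a fall of 1.69 ± 0.0599. PKP2, a plakophilin, stood at 39.3, 38.5 and 46.6 CPM in the TGFβ libraries, against 89.7, 87.6 and 91.0 CPM in the siCont libraries, a fall of 1.11 ± 0.0729. EVPL, envoplakin, fell by 0.97 ± 0.0789 and PERP, a desmosomal membrane protein, by 0.72 ± 0.0614, while the desmoglein DSG2 rose by 0.42 ± 0.0719. Of 8 hemidesmosomal genes, 4 fell and 2 rose. Of these 8, 3 belong to the second profile, and without siCont A 3 fell and 3 rose. ITGB4, whose β4 integrin anchors cells to the basement membrane, stood at 6.98, 8.15 and 6.94 CPM in the TGFβ libraries, against 38.4, 29.0 and 36.5 CPM in the siCont libraries, a fall of 2.24 ± 0.133. LAMA3, a chain of laminin-332, fell by 2.11 ± 0.286. The second profile could supply 53.7% of its siCont level, and LAMA3 was −1.71 without siCont A and −1.33 ± 0.322 after siKLF10.

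Among 7 tested simple keratins, 4 fell and none rose. KRT19, a duct keratin, stood at 59.6, 57.3 and 59.2 CPM in the TGFβ libraries, against 223, 214 and 236 CPM in the siCont libraries, and it fell by 1.93 ± 0.0753 here and by a similar amount after siKLF10 (−2.19 ± 0.0779). KRT8 and KRT18, which pair in simple epithelia, stood at 253 ± 7.34 CPM with TGFβ and 466 ± 46.7 CPM with siCont for KRT8 and at 128 ± 9.27 CPM with TGFβ and 201 ± 11.2 CPM with siCont for KRT18. Both fell here (−0.88 ± 0.0832 and −0.65 ± 0.0634) and were not called after siKLF10 (−0.01 ± 0.0820 and −0.00 ± 0.0625). KRT8 stood at 569, 448 and 466 CPM with siKLF10 and TGFβ, against 516, 461 and 515 CPM with siKLF10, so its TGFβ libraries were the low ones of the 12. KRT7 fell by 1.74 ± 0.407, but the second profile could supply 71.5% of its siCont level, it was not called after siKLF10 (−0.19 ± 0.478), and its call was lost when the 6 libraries were fitted alone (adjusted p = 0.0911). VIM, the mesenchymal filament vimentin, stood at 12971, 12145 and 13543 CPM in the TGFβ libraries, against 9522, 9641 and 8312 CPM in the siCont libraries, a rise of 0.49 ± 0.0709. Nuclear lamin LMNA fell by 0.52 ± 0.0759.

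More matrix genes rose than fell. Of 7 tested fibrillar collagen genes, 5 rose and none fell (median 1.30). COL1A1, the α1 chain of type I collagen, stood at 1837, 1857 and 1967 CPM in the TGFβ libraries, against 158, 143 and 158 CPM in the siCont libraries. It rose 12.3-fold (3.62 ± 0.0782, adjusted p = 1.66e-19), with TGFβ libraries within 1 narrow band. COL5A1 stood at 497, 523 and 478 CPM in the TGFβ libraries, against 53.03, 59.8 and 63.0 CPM in the siCont libraries (3.09 ± 0.0707) and COL5A2, the other chain of type V collagen, rose by 1.30 ± 0.0653. COL27A1 and COL3A1 rose by 1.91 ± 0.136 and 1.16 ± 0.0975, while COL11A1 (0.06 ± 0.0657) was not called. Summed over the 10 fibrillar collagen genes, the level was 3436, 3493 and 3474 CPM in the TGFβ libraries, against 779.8, 767 and 809.8 CPM in the siCont libraries.

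Of 21 other collagen genes, 10 rose and 4 fell. COL7A1, which forms anchoring fibrils, stood at 84.8, 95.5 and 83.5 CPM in the TGFβ libraries, against 5.45, 7.80 and 7.39 CPM in the siCont libraries (3.67 ± 0.104). COL22A1, found at tissue junctions, stood at 7.56, 6.31 and 7.35 CPM in the TGFβ libraries, against 0.295, 0.315 and 0.0666 CPM in the siCont libraries, which was close to the detection limit in the siCont libraries. COL10A1 had 8, 7 and 5 counts in the TGFβ libraries and 0 in each siCont library, at least 6.59-fold higher against a floor of 3 counts over the siCont group. COL6A3 and COL15A1 rose by 1.36 ± 0.198 and 2.01 ± 0.431, and EMID2 fell by 1.79 ± 0.209.

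Enzymes that modify and cross-link collagen rose in 14 of 21 cases and fell in 1. LOXL4, a lysyl oxidase, stood at 17.6, 17.98 and 16.4 CPM in the TGFβ libraries, against 2.36, 2.21 and 1.40 CPM in the siCont libraries, and the prolyl hydroxylase subunit P4HA3 at 28.3, 34.1 and 30.8 CPM in the TGFβ libraries, against 2.80, 3.94 and 4.66 CPM in the siCont libraries. Both were among the 10 largest rises. The lysyl oxidase LOX rose by 1.29 ± 0.0936, the procollagen N-proteinase ADAMTS2 by 2.68 ± 0.431, the lysyl hydroxylase PLOD1 by 0.71 ± 0.0692 and P4HA2 by 0.53 ± 0.0940. The collagen chaperone SERPINH1 (0.04 ± 0.0720) was not called, with overlapping groups.

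Matrix glycoproteins rose in 10 of 19 cases and fell in 3, or in 1 without siCont B, TGFβ A or TGFβ B. None of the 3 was called lower after siKLF10. FN1, fibronectin, stood at 259, 254 and 214 CPM in the TGFβ libraries, against 40.4, 31.8 and 43.3 CPM in the siCont libraries. TGFBI, an adhesion protein named for its induction by TGFβ, stood at 1078, 1150.2 and 930.5 CPM in the TGFβ libraries, against 189, 185 and 208 CPM in the siCont libraries (2.44 ± 0.0762). SPOCK1, testican, stood at 479.5, 462 and 459 CPM in the TGFβ libraries, against 100.4, 97.1 and 104 CPM in the siCont libraries (2.21 ± 0.0657). Fibrillin FBN1 and its microfibril partner MFAP2 rose by 1.86 ± 0.0881 and 1.81 ± 0.114. Tenascin TNC (−0.01 ± 0.113) was not called. Among 23 proteoglycan and hyaluronan genes, 10 rose and 5 fell. Versican VCAN stood at 7.12, 6.95 and 4.83 CPM in the TGFβ libraries, against 0.589, 0.867 and 0.932 CPM in the siCont libraries (2.96 ± 0.229), the hyaluronan synthase HAS2 at 46.3, 39.8 and 43.1 CPM in the TGFβ libraries, against 19.4, 19.5 and 16.04 CPM in the siCont libraries (1.24 ± 0.0916), and the chondroitin sulfotransferase CHST11 rose by 1.46 ± 0.0695. Perlecan HSPG2 fell by 0.76 ± 0.106. Laminin chains were mixed, with 4 of 11 higher and 3 lower, among them LAMC1 (0.44 ± 0.0587) and LAMA5 (−0.57 ± 0.0971).

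Of 16 tested integrin genes, 8 rose and 4 fell, and ITGB4 and ITGB8 were among the falls. ITGB5 stood at 458, 483 and 461 CPM in the TGFβ libraries, against 216, 200.1 and 227 CPM in the siCont libraries (1.13 ± 0.0572), ITGB3 at 79.7, 74.3 and 82.5 CPM in the TGFβ libraries, against 34.5, 32.8 and 31.1 CPM in the siCont libraries (1.27 ± 0.0759) and ITGA5, the fibronectin receptor chain, at 185, 204 and 192 CPM in the TGFβ libraries, against 99.8, 98.1 and 110.4 CPM in the siCont libraries (0.91 ± 0.0612). The collagen receptor chain ITGA1 rose by 1.97 ± 0.165. ITGA3 (−0.04 ± 0.0744), a laminin receptor chain, was not called.

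Of 28 tested matrix proteases, 13 rose and 3 fell. ADAM19, a membrane metalloproteinase, stood at 475, 466 and 484 CPM in the TGFβ libraries, against 42.4, 35.2 and 40.5 CPM in the siCont libraries, a 12.04-fold rise. MMP2, a gelatinase, stood at 531, 562 and 508 CPM in the TGFβ libraries, against 205, 204 and 226 CPM in the siCont libraries (1.33 ± 0.0597). MMP10, at low levels, rose by 3.29 ± 0.591, ADAMTS6 by 2.40 ± 0.247 and ADAMTS15 by 1.22 ± 0.0831. ADAM9 (−0.06 ± 0.0721) was not called. FAP, the fibroblast activation protease, had 23, 13 and 26 counts in the TGFβ libraries and 0, 1 and 1 in the siCont libraries. Of 15 protease inhibitors and plasminogen system genes, 5 rose and 6 fell, and 2 fell without siCont A. Of the 11 that the rule did not assign to the second profile, 5 rose and 3 fell. The urokinase receptor PLAUR rose by 1.12 ± 0.129 and TIMP2 by 0.61 ± 0.0567.

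Of 41 tested genes of actin filaments and contraction, 21 rose and 4 fell (median 0.27). TPM1, tropomyosin 1, stood at 1277, 1239 and 1134 CPM in the TGFβ libraries, against 257, 263 and 255 CPM in the siCont libraries (2.24 ± 0.0585). MYO10, a filopodial myosin, stood at 952, 901 and 867 CPM in the TGFβ libraries, against 342, 323 and 376 CPM in the siCont libraries (1.39 ± 0.0621). Caldesmon CALD1 rose by 1.12 ± 0.0543, palladin PALLD by 1.13 ± 0.0694 and the light chain MYL9 by 0.94 ± 0.101. The smooth muscle genes CNN1 and TAGLN were low, at 3.82 ± 0.713 CPM with TGFβ and 1.29 ± 0.186 CPM with siCont for CNN1, and rose by 1.56 ± 0.289 and 1.55 ± 0.193. The non-muscle heavy chain MYH9 (−0.02 ± 0.0572) and vinculin VCL (−0.10 ± 0.0541) were not called. Among 24 genes of small GTPases and their regulators, 5 rose and 6 fell, with ARHGAP22 at 1.51 ± 0.136, RHOB at 0.85 ± 0.0714 and ARHGEF16 at −1.44 ± 0.220, while RHOA (0.06 ± 0.0575) and RAC1 (0.06 ± 0.0904) were not called.

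Tubulin genes were mixed, with 4 of 21 higher and 5 lower. TUBA4A, an α-tubulin, stood at 88.3, 85.9 and 70.6 CPM in the TGFβ libraries, against 8.25, 5.44 and 5.72 CPM in the siCont libraries, and the lowest TGFβ library was far above the highest siCont library. TUBA4A rose by 3.65 ± 0.147 here and by more after siKLF10 (5.35 ± 0.149, interaction 1.70 ± 0.230, adjusted p = 0.000455). The interaction is the TGFβ effect after siKLF10 minus that with siCont, and 4.42% of genes tested were called for it. STMN3, a microtubule-destabilizing stathmin, and TUBB4A fell by 1.37 ± 0.122 and 1.03 ± 0.167.

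AP-1 and immediate early genes split, with 4 of 18 higher and 6 lower, or 3 lower without siCont B. JUN rose by 0.74 ± 0.0632 beside JUNB, and FOSL1 stood at 151, 176 and 186 CPM in the TGFβ libraries, against 281, 283 and 268 CPM in the siCont libraries, a fall of 0.70 ± 0.122. FOS stood at 0.800, 0.480 and 0.204 CPM in the TGFβ libraries, against 3.68, 1.02 and 2.66 CPM in the siCont libraries and fell by 2.32 ± 0.465 here, but was not called after siKLF10 (−0.35 ± 0.577). EGR1 fell by 0.69 ± 0.147 and was −0.05 ± 0.176 after siKLF10. Targets of the YAP and TEAD factors were 6 higher and 7 lower of 24, or 4 lower without TGFβ A. CTGF stood at 707, 725 and 764 CPM in the TGFβ libraries, against 231, 191 and 177 CPM in the siCont libraries (1.88 ± 0.0790) and CYR61 at 658, 678 and 671 CPM in the TGFβ libraries, against 395, 375 and 359 CPM in the siCont libraries (0.83 ± 0.0555), both matricellular proteins, while AMOTL2 fell by 0.80 ± 0.0673 and WISP2 by 1.84 ± 0.145. YAP1 (0.01 ± 0.0784) and WWTR1 (−0.06 ± 0.0579), the co-activators themselves, were not called.

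Growth factor genes changed in both directions. Of 35 FGF, PDGF and VEGF genes, 11 rose and 12 fell. PDGFA stood at 67.5, 71.4 and 65.7 CPM in the TGFβ libraries, against 18.9, 14.6 and 12.7 CPM in the siCont libraries and PDGFB at 150.3, 156 and 144 CPM in the TGFβ libraries, against 46.1, 49.2 and 49.4 CPM in the siCont libraries, and they rose by 2.15 ± 0.101 and 1.64 ± 0.0685. The effect on PDGFA after siKLF10 was 3.51 ± 0.101. NRP2, a neuropilin co-receptor, stood at 359, 353 and 364 CPM in the TGFβ libraries, against 78.7, 76.9 and 82.9 CPM in the siCont libraries (2.17 ± 0.0569), and ANGPTL4, a secreted lipase inhibitor, at 51.5, 52.4 and 49.3 CPM in the TGFβ libraries, against 9.57, 11.3 and 11.8 CPM in the siCont libraries (2.22 ± 0.0920). MET (0.03 ± 0.0657) and FGF2 (0.07 ± 0.0721) were not called. In the IGF axis 7 of 17 rose and 4 fell. IGFBP3, an IGF carrier, stood at 66.4, 66.5 and 69.9 CPM in the TGFβ libraries, against 18.5, 15.8 and 14.2 CPM in the siCont libraries and rose by 2.07 ± 0.0853, and IGFBP4 stood at 124, 129 and 137 CPM in the TGFβ libraries, against 328, 371 and 365 CPM in the siCont libraries and fell by 1.45 ± 0.0630.

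Of 19 tested Notch genes, 8 rose and 2 fell. The ligand JAG1 stood at 153, 138 and 155 CPM in the TGFβ libraries, against 43.2, 39.3 and 36.7 CPM in the siCont libraries (1.90 ± 0.0698), while JAG2 stood at 6.25, 5.36 and 4.69 CPM in the TGFβ libraries, against 12.9, 13.8 and 14.1 CPM in the siCont libraries (−1.32 ± 0.137), so the paired ligands moved in opposite directions. The target HES1 stood at 67.4, 71.5 and 73.2 CPM in the TGFβ libraries, against 31.0, 31.8 and 26.2 CPM in the siCont libraries (1.26 ± 0.0799). Of 39 WNT genes, 10 rose and 14 fell. The ligands WNT5A (1.86 ± 0.137), WNT11 (2.71 ± 0.365) and WNT3 (1.71 ± 0.229) rose, WNT6 (−2.82 ± 0.478) and the inhibitor NKD2 (−1.33 ± 0.194) fell, and TCF7L2 (−0.05 ± 0.0693) was not called. Guidance genes had 11 rises and 11 falls of 41, with EPHB2 at 473, 487 and 486 CPM in the TGFβ libraries, against 138, 139 and 141 CPM in the siCont libraries (1.79 ± 0.0659) and its family's ligand EFNA2 at 2.41 ± 0.236. Among 12 ERBB genes 3 rose and 6 fell, with ERBB3 at −0.65 ± 0.157 and ERBB2 at −0.36 ± 0.0759. Of 18 MAPK feedback genes 5 rose (3 without siCont B, 2 without TGFβ C) and 6 fell, with SPRY1 at 13.5, 9.43 and 10.9 CPM in the TGFβ libraries, against 32.9, 32.2 and 30.9 CPM in the siCont libraries (−1.50 ± 0.111) and DUSP1 at −0.73 ± 0.103. DUSP4 fell by 2.04 ± 0.501, but its share from the second profile reached the cap of 100% of its siCont level. DUSP4 was −1.13 without siCont A and was not called after siKLF10 (1.23 ± 0.536).

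More interferon-stimulated genes fell than rose. Of 38 tested, 17 fell and 4 rose (median −0.31), and after siKLF10 29 fell and 2 rose. IFITM1, an antiviral membrane protein, stood at 3.49, 3.92 and 4.01 CPM in the TGFβ libraries, against 20.7, 22.9 and 20.6 CPM in the siCont libraries (−2.49 ± 0.128). IFITM2 and IFIT2 fell by 1.27 ± 0.140 and 1.20 ± 0.154, and OAS1, at low levels, by 0.92 ± 0.204. TMEM173, the DNA sensor adaptor STING, stood at 3.13, 1.76 and 1.90 CPM in the TGFβ libraries, against 7.14, 8.82 and 8.85 CPM in the siCont libraries, among the 30 largest falls (−1.86 ± 0.186). The transcription factor STAT2 (−0.19 ± 0.0846) was not called. Of 9 tested genes of HLA class I presentation, 1 rose and 1 fell. The fall was that of B2M, the light chain of class I molecules, at 723, 726 and 812 CPM in the TGFβ libraries, against 1142, 1039 and 871 CPM in the siCont libraries (−0.43 ± 0.102).

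Of 33 cytokine and NFκB genes, 17 fell and 7 rose, or 4 without TGFβ A (median −0.26). CSF1, the macrophage growth factor, stood at 12.4, 12.1 and 14.6 CPM in the TGFβ libraries, against 45.4, 51.2 and 51.4 CPM in the siCont libraries (−1.92 ± 0.0972). The receptor IL6R stood at 9.89, 8.95 and 8.44 CPM in the TGFβ libraries, against 21.3, 26.9 and 25.0 CPM in the siCont libraries (−1.42 ± 0.122) and the chemokine CXCL16 fell by 1.28 ± 0.155. PTGS2, cyclooxygenase 2, rose by 1.27 ± 0.245 beside IL11. Of 16 complement and coagulation genes 4 rose and 7 fell. The complement inhibitor CD59 stood at 1599, 1675 and 1451 CPM in the TGFβ libraries, against 804, 836 and 879 CPM in the siCont libraries (0.91 ± 0.0633) and the protease receptor F2RL1 at 808, 831 and 827 CPM in the TGFβ libraries, against 452, 462 and 453 CPM in the siCont libraries (0.85 ± 0.0531), while the complement regulator CD55 fell by 0.94 ± 0.101 here and was not called after siKLF10 (−0.24 ± 0.0996).

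Of 21 fatty acid synthesis genes, 12 fell and 2 rose (median −0.24), and after siKLF10 9 fell and 6 rose. SREBF1, the lipogenic master factor, stood at 56.3, 61.3 and 62.1 CPM in the TGFβ libraries, against 110.3, 105.2 and 106 CPM in the siCont libraries (−0.84 ± 0.0801) and the desaturase FADS2 at 242, 254 and 239 CPM in the TGFβ libraries, against 359.6, 385 and 419.8 CPM in the siCont libraries (−0.66 ± 0.0693). FASN fell by 0.42 ± 0.0775 and the phosphatidate phosphatase LPIN1 by 0.70 ± 0.0797, while FASN was not called after siKLF10 (−0.13 ± 0.0786). Of 24 cholesterol synthesis genes 9 fell and 1 rose, and after siKLF10 5 fell and 9 rose. TM7SF2, whose promoter is printed above, fell by 1.83 ± 0.133.

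Of 30 glycolysis and hypoxia genes 8 rose and 9 fell. The glucose transporter SLC2A1 rose by 0.53 ± 0.0878, PFKFB3 by 0.52 ± 0.0953 and NDRG1 by 0.57 ± 0.0894, and the mitophagy receptor BNIP3 fell by 1.02 ± 0.0992, while PKM2 (0.05 ± 0.0776) was not called. Of 25 oxidative phosphorylation genes 2 rose and 4 fell, and 1 fell without siCont C or TGFβ A. Of 21 genes in a list of amino acid metabolism 2 rose and 8 fell, among them ASS1, of arginine synthesis (−1.60 ± 0.184), and ALDH4A1, of proline breakdown (−0.88 ± 0.144). Of 31 NRF2 and detoxification genes 6 rose and 12 fell, with HMOX1 at 69.2, 78.4 and 64.3 CPM in the TGFβ libraries, against 32.6, 37.1 and 39.9 CPM in the siCont libraries (0.95 ± 0.0880) and OSGIN1 at −1.23 ± 0.292. ALDH3A1 fell by 2.71 ± 0.551, but belongs to the second profile, was −1.78 without siCont A and was not called after siKLF10 (−0.03 ± 0.935). Amino acid transporters had 4 rises and 3 falls of 21, with SLC38A5 at 2.88 ± 0.429 and SLC7A5 at −0.71 ± 0.0676. Their rises numbered 2 without siCont B or TGFβ A and their falls 5 without siCont C. The unfolded protein list had 8 rises (5 without TGFβ B) and 4 falls of 28, with PDIA4 at 0.44 ± 0.0560 and DDIT4 at −0.81 ± 0.118.

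Proliferation genes did not fall as a group. Of 34 genes of G1/S and replication 9 rose (4 without TGFβ A) and 2 fell, and of 30 G2/M genes 5 rose (3 without siCont C, 8 with the 6 libraries alone) and 1 fell. The marker MKI67 stood at 2761, 2576 and 2635 CPM in the TGFβ libraries, against 2606, 2456 and 2632 CPM in the siCont libraries, with overlapping groups (0.05 ± 0.0568). E2F7, a repressor among the E2F factors, stood at 90.4, 89.4 and 91.8 CPM in the TGFβ libraries, against 36.7, 41.0 and 41.1 CPM in the siCont libraries (1.19 ± 0.0695), while E2F2 and the phosphatase CDC25B fell by 0.71 ± 0.142 and 0.86 ± 0.0619. Of 6 CDK inhibitors tested, 1 rose and 4 fell. CDKN1A, p21, stood at 39.3, 44.1 and 39.2 CPM in the TGFβ libraries, against 31.7, 28.0 and 29.9 CPM in the siCont libraries (0.45 ± 0.0824). CDKN1B and CDKN2C fell by 0.45 ± 0.0818 and 0.57 ± 0.0722. CDKN2A, which gives p16, belongs to the second profile and stood at 0.218, 0 and 0.0680 CPM in the TGFβ libraries, against 4.12, 1.42 and 2.60 CPM in the siCont libraries. It stood at 0.0659, 0.489 and 0.0868 CPM with siKLF10 and TGFβ, against 0.0857, 0 and 0 CPM with siKLF10. Among 23 p53 targets 3 rose and 4 fell. Of 14 BCL2 family genes 3 rose and 4 fell. The falls numbered 0 without siCont B, 1 without TGFβ A and 2 without TGFβ B. BMF, a pro-apoptotic BH3 protein, stood at 52.2, 48.4 and 49.1 CPM in the TGFβ libraries, against 10.6, 10.7 and 10.6 CPM in the siCont libraries (2.23 ± 0.0889), with a smaller effect after siKLF10 (0.97 ± 0.0760, interaction −1.26 ± 0.118, adjusted p = 1.48e-06).

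Most mucin and secretory genes fell. Of 10 tested mucin and secretory genes, 8 fell and none rose (median −1.75). Of the 8 that the rule did not assign to the second profile, 7 fell. AGR2, a disulfide isomerase of mucin-producing cells, stood at 11.7, 11.5 and 15.1 CPM in the TGFβ libraries, against 63.1, 63.1 and 52.6 CPM in the siCont libraries (−2.21 ± 0.101). MUC16 stood at 1.24, 0.719 and 1.29 CPM in the TGFβ libraries, against 5.89, 4.65 and 4.79 CPM in the siCont libraries (−2.21 ± 0.240), MUC5B fell by 3.90 ± 0.505 at low levels, and MUC1 fell by 0.45 ± 0.0941. Of 16 S100 and annexin genes, 3 of them of the second profile, 6 fell and 2 rose, with ANXA3 at −1.53 ± 0.169 and ANXA1 at −0.82 ± 0.0666. Without siCont A 4 fell, and S100A14 and S100A13 lost their calls (adjusted p = 0.0856 and 0.0929). Of 19 genes of caveolae and surface proteins 10 fell and 4 rose. The caveolar coat genes PTRF and EHD2 fell by 0.70 ± 0.0628 and 0.61 ± 0.0750, CD24 stood at 41.7, 38.9 and 41.6 CPM in the TGFβ libraries, against 96.4, 97.5 and 96.8 CPM in the siCont libraries (−1.25 ± 0.0673), and the ectonucleotidase NT5E, CD73, stood at 888, 906 and 929 CPM in the TGFβ libraries, against 510.5, 523 and 494 CPM in the siCont libraries (0.83 ± 0.0577).

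Of 34 histone and DNA modifiers 10 rose and 2 fell, and without TGFβ C 6 rose and 1 fell. PADI2, a protein-citrullinating enzyme, stood at 328, 323 and 334 CPM in the TGFβ libraries, against 117, 118 and 129.6 CPM in the siCont libraries (1.43 ± 0.0568) and was not called after siKLF10 (0.12 ± 0.0559), and HDAC9 fell by 1.09 ± 0.0969. In the KLF and SP family 6 of 18 rose and 4 fell, with KLF7 at 27.4, 23.0 and 28.8 CPM in the TGFβ libraries, against 10.2, 8.98 and 11.8 CPM in the siCont libraries (1.35 ± 0.108) and SP1 at −0.22 ± 0.0554. Of 18 long noncoding and microRNA host genes 4 rose and 5 fell, and the falls numbered 2 without TGFβ A or TGFβ B and 3 without TGFβ C. MALAT1 stood at 6413, 7026 and 6619 CPM in the TGFβ libraries, against 11360.0, 10600.0 and 11497 CPM in the siCont libraries (−0.74 ± 0.0902), and NEAT1, its neighbour that scaffolds paraspeckles, at 196, 240.2 and 211 CPM in the TGFβ libraries, against 320.0, 367 and 411 CPM in the siCont libraries (−0.76 ± 0.0895). Of 28 ion channel genes 8 rose and 9 fell, with KCNG1 at 1.98 ± 0.140 and CACNA1G at 1.54 ± 0.173. Of 17 splicing regulators 2 rose and 5 fell. Falls of at least 2-fold were those of ESRP1 and ESRP2, described above, RBM47 (−1.20 ± 0.396) and CELF2 (−1.002 ± 0.307), and smaller changes were those of RBM24 (0.35 ± 0.0601) and MBNL2 (−0.35 ± 0.0628). The falls numbered 2 without siCont A, where ESRP1, RBM47 and CELF2 lost their calls (adjusted p = 0.26, 0.131 and 0.0735), 3 without TGFβ B or TGFβ C, and 2 with DESeq2. None of 22 tested ribosomal protein genes was called.

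**Figure D4:**
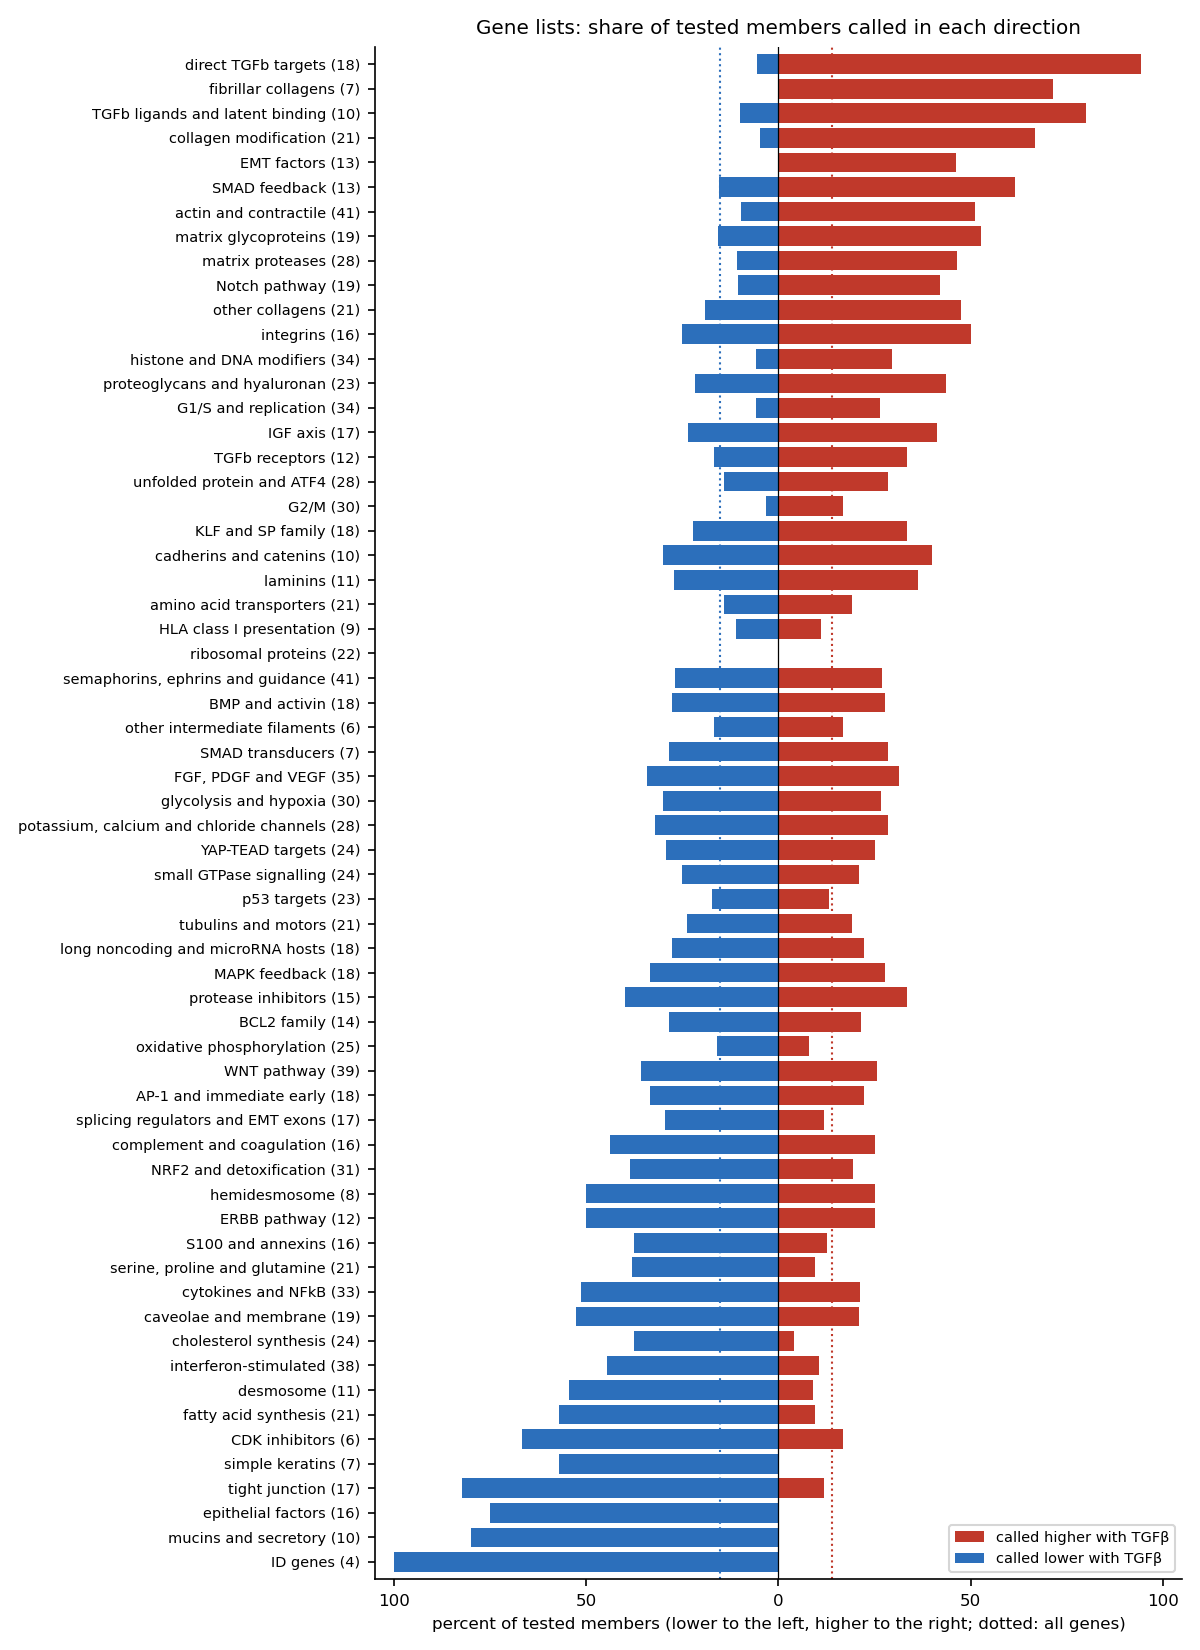
Percent of tested members called higher (right) and lower (left) with TGFβ for each gene list, with the number tested in brackets and dotted lines at 14% higher and 15.1% lower for all genes. Lists of TGFβ targets, collagens and ligands lie at the top, and those of ID, mucin, epithelial and tight junction genes at the bottom.

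The 30 largest rises among called genes with a mean of at least 5 CPM and no overlap ran from 3.91 (PIK3AP1) to 2.22 (ANGPTL4) on the log2 scale. PIK3AP1, an adaptor of PI3 kinase, stood at 24.5, 24.4 and 21.5 CPM in the TGFβ libraries, against 1.77, 1.497 and 1.40 CPM in the siCont libraries. FOXS1, a forkhead factor, stood at 10.5, 10.2 and 9.25 CPM in the TGFβ libraries, against 0.957, 0.709 and 0.932 CPM in the siCont libraries (3.50 ± 0.227), and VGLL3, a co-factor of TEAD proteins, at 20.5, 20.4 and 20 CPM in the TGFβ libraries, against 2.80, 1.497 and 2.20 CPM in the siCont libraries (3.21 ± 0.150). PLEK2, pleckstrin 2, stood at 115, 120.1 and 109 CPM in the TGFβ libraries, against 15.7, 15.8 and 15.97 CPM in the siCont libraries (2.86 ± 0.0772), and PODXL, podocalyxin, at 440.4, 441 and 418 CPM in the TGFβ libraries, against 82.6, 81.5 and 93.2 CPM in the siCont libraries (2.33 ± 0.0628). OLFM2, SIRPA, GPRC5B, TMEM92 and FLJ16779 rose by 2.36 to 2.74. NEDD9, a docking protein of focal adhesions, rose by 2.29 ± 0.167 although siCont A stood above siCont B and C, at 36.4, 37.2 and 33.9 CPM in the TGFβ libraries, against 10.7, 5.44 and 5.86 CPM in the siCont libraries. Without siCont A its log2 fold change was 2.66.

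The 30 largest falls by the same rule were led by MUC2 at −4.41. MUC2, LAMA3 and KRT5 among them belong to the second profile, and MUC2 and KRT5 were not called after siKLF10 (0.26 ± 1.71 and −0.02 ± 0.581). Without siCont A the values were −3.55 for MUC2 and −1.44 for KRT5, and the call of KRT5 was lost when the 6 libraries were fitted alone (adjusted p = 0.0713). PPP1R1B, the phosphatase inhibitor DARPP-32, stood at 1.38, 0.799 and 0.748 CPM in the TGFβ libraries, against 9.57, 9.14 and 9.98 CPM in the siCont libraries (−3.28 ± 0.193). PPP2R2B, a phosphatase 2A subunit, stood at 1.60, 1.76 and 1.90 CPM in the TGFβ libraries, against 13.3, 9.85 and 10.1 CPM in the siCont libraries (−2.65 ± 0.217). CABLES1, a CDK-binding protein, stood at 7.997, 6.95 and 7.62 CPM in the TGFβ libraries, against 32.6, 37.7 and 37.6 CPM in the siCont libraries (−2.25 ± 0.0969), and ABCG2, a drug efflux transporter, at 15.3, 13.7 and 14.7 CPM in the TGFβ libraries, against 61.1, 59.7 and 62.7 CPM in the siCont libraries (−2.07 ± 0.0886). LINC00261, a noncoding RNA of endoderm, stood at 7.05, 6.23 and 7.48 CPM in the TGFβ libraries, against 31.3, 28.0 and 28.7 CPM in the siCont libraries (−2.08 ± 0.124), and GPRC5A, a retinoid-induced receptor, at 38.9, 39.6 and 36.7 CPM in the TGFβ libraries, against 146, 137 and 161 CPM in the siCont libraries (−1.95 ± 0.0795). RASL11A, LINGO1, HHIPL2, AP1S3, TPPP and PLXNA2 fell by 1.83 to 2.46.

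The 10 largest changes in mean CPM, a scale that favours long and abundant transcripts, were 7 higher and 3 lower means. The higher means included those of VIM (by 3728 CPM), COL1A1 (by 1734 CPM), ACTB (by 1001 CPM), TPM1 (by 958 CPM), TGFBI (by 859 CPM) and PMEPA1 (by 816 CPM). ACTB, β-actin, was not called (0.28 ± 0.106, adjusted p = 0.0659), but passed with DESeq2 (0.024) and when the 6 libraries were fitted alone (0.000708). The lower means were those of MALAT1 (-4466 CPM), AHNAK (-3938 CPM) and the hyaluronan receptor CD44 (-1161 CPM). AHNAK, a giant scaffold protein, stood at 3504, 3436 and 3216 CPM in the TGFβ libraries, against 6804, 6792 and 8372 CPM in the siCont libraries (−1.11 ± 0.0932).

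A group of 12 genes had at most 3 counts summed over one group and at least 50 over the other. Among those switched towards TGFβ were C3orf80, CDH19, FAP, JAM2, LOC100132891 and MRO. CDH19, a cadherin, had 14, 20 and 19 counts in the TGFβ libraries and 1, 1 and 0 in the siCont libraries, a ratio of 26.2 (exact 95% interval 6.91 to 222, for counting error only). FAP had a ratio of 30.7 (8.14 to 259). Switched towards siCont were C1orf130, NLRP2, SSTR5, TFPI2 and TUSC3. C1orf130 had 0, 0 and 1 counts in the TGFβ libraries and 25, 19 and 29 in the siCont libraries, and 4 counts with siKLF10 and TGFβ against 72 with siKLF10. NLRP2 had 1, 0 and 2 counts in the TGFβ libraries and 47, 14 and 27 in the siCont libraries, but 4 and 1 in the siKLF10 pair, and TFPI2 and TUSC3 were likewise low in that pair.

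The same treatment was given after siKLF10, in 6 libraries whose levels do not enter the fold changes above, although all 12 Panc1 libraries share the filter and the estimate of spread. There 45% of genes tested were called, 22.6% higher and 22.3% lower. Of the 355 genes that rose at least 2-fold here, 332 rose there too, 0 fell, and 23 were not called. Of the 417 that fell at least 2-fold here, 324 fell there, 0 rose, and 93 were not called, 35 of which belong to the second profile. The collagen COL7A1 rose by less there (2.60 ± 0.0973 against 3.67 ± 0.104 here, interaction −1.08 ± 0.149, adjusted p = 0.000138), and ADAM19 by more (4.29 ± 0.0746 against 3.59 ± 0.0724, interaction 0.70 ± 0.0975, adjusted p = 0.000145).

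**Figure D5:**
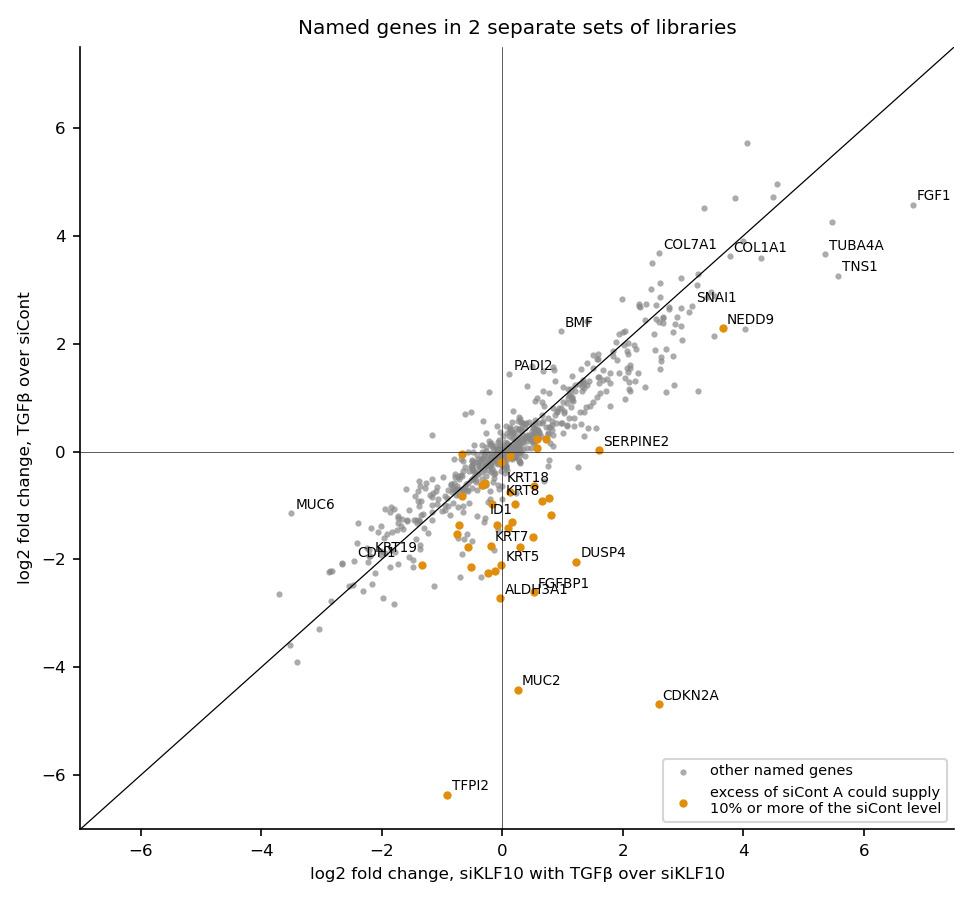
Log2 fold change of TGFβ over siCont (vertical) against that of siKLF10 with TGFβ over siKLF10 (horizontal) for the named genes, with the line of equal values. Most points lie near the line, and genes such as MUC2, TFPI2, ALDH3A1 and KRT5 (orange) lie near 0 on the horizontal axis and below −2 on the vertical axis.

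The TGFβ effect in Panc1 was also set against that in A549, which had 2 libraries in each group, in 1 model over all 20 libraries. The difference between the lines was called for 31% of 15058 genes tested. Levels in these sentences come from that model. The A549 TGFβ and siCont libraries held 6846761 to 13459688 counts in genes. Reads in no feature made up 59.2% to 59.9% of those in a gene, in no feature or ambiguous between genes. In the Panc1 libraries compared the share was 33.6% to 36.9%. The part of these unlike libraries in the line differences was not tested. CDH1 fell in both lines, by less in Panc1, with a difference of 1.00 ± 0.213 (adjusted p = 0.000492). It stood at 3.66 and 14.9 CPM in Panc1 with TGFβ and with siCont, and at 40.2 and 330.2 CPM in A549 with TGFβ and with siCont. SNAI1 and FN1 rose more in Panc1 (0.89 ± 0.253 and 0.64 ± 0.142). SNAI2, ZEB1, CDH2 and VIM rose less in Panc1, with differences of −1.01 ± 0.385, −0.44 ± 0.133, −1.24 ± 0.114 and −0.68 ± 0.111. KLF10 (−0.12 ± 0.0972, adjusted p = 0.396) and SMAD7 (−0.24 ± 0.146, adjusted p = 0.238) were not called.

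Among the largest differences were genes that were not called in Panc1 and rose in A549. CORO2B, a coronin, stood at 5.77 and 6.36 CPM in Panc1 with TGFβ and with siCont, and at 68.7 and 0.209 CPM in A549 with TGFβ and with siCont, a difference of −8.47 ± 0.286. RASGRP3, an activator of RAS proteins, stood at 9.35 and 8.32 CPM in Panc1 with TGFβ and with siCont, and at 165 and 1.39 CPM in A549 with TGFβ and with siCont (−6.72 ± 0.236). KIF26B, a kinesin-like protein, stood at 9.46 and 10.2 CPM in Panc1 with TGFβ and with siCont, and at 30.6 and 0.194 CPM in A549 with TGFβ and with siCont (−7.27 ± 0.332). A count of 3 was worth 0.223 and 0.273 CPM in A549 siCont A and B. There CORO2B had 0.149 and 0.269 CPM and KIF26B 0.297 and 0.0897 CPM, so the sizes of both differences rest on few counts. In the other direction CNTN1, a contactin, stood at 11.3 and 2.50 CPM in Panc1 with TGFβ and with siCont, and at 179.6 and 512 CPM in A549 with TGFβ and with siCont (3.69 ± 0.180), and RHOBTB1, an atypical small GTPase, at 22.7 and 9.20 CPM in Panc1 with TGFβ and with siCont, and at 25.9 and 107 CPM in A549 with TGFβ and with siCont (3.35 ± 0.143). Both rose in Panc1 and fell in A549. AGR2 fell in both lines and fell further in A549 (3.86 ± 0.175), where it stood at 8.28 and 6.04 CPM in the A549 TGFβ libraries, against 482 and 504 CPM in the A549 siCont libraries.

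The authors' deposited table of the same comparison was set against these calls. Of 13198 genes matched by symbol, the authors' deposited table had 3274 with an adjusted p under 0.05, and 3156 of them were called here in the same direction and 0 in the opposite one. The authors' deposited table gave log2 fold changes of 3.58 for COL1A1, 2.56 for SNAI1, −1.75 for CDH1 and −1.89 for KRT19, against 3.62, 2.70, −2.03 and −1.93 here. Other values lay further apart: the authors' deposited table gave −1.16 for MUC2, −0.97 for KRT5 and 2.70 for FOXS1, against −4.41, −2.10 and 3.50 here. The authors' values come from DESeq2, in a version not given, and those here from edgeR. DESeq2 1.42.0 run here gave −1.38 for ESRP1 and −1.20 for RBM47, against −1.37 and −1.20 with edgeR. The source of the gaps to the authors' values was not tested. Over genes called here, the median ratio of the authors' log2 fold change to that here was 0.949.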

How the data were processed

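Poly(A) RNA was sequenced after a directional mRNA library kit, per the labels' protocols. The deposited files hold 1 raw count per gene and library for 23368 genes, made by the authors. The submitters' processing notes name HTSeq 0.6.0, DESeq2, Bowtie2 and TopHat and the build hg19, without their roles or order, and no source used here says whether counting used strand. Genes that overlap on opposite strands, and near-identical paralogs, can therefore share reads. Summary rows were left out. Of the reads counted in a gene, in no feature or as ambiguous between genes, those in no feature came to 33.6% to 36.9% in the 6 files.

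Counts were tested in R 4.3.3 with edgeR 4.0.16. The function filterByExpr chose the genes tested (minimum total 15, minimum count 10), and libraries were scaled by TMM and fitted together by robust quasi-likelihood over all 12 Panc1 libraries with 1 mean per group and 8 residual degrees of freedom, and p-values were adjusted by Benjamini-Hochberg over 13218 genes. Standard errors of log2 fold changes were taken from the F statistic. The difference between lines was tested over all 20 libraries. Sums over lists are plain CPM of gene counts. Counts were simulated with the library totals and fitted spread of the 12 Panc1 libraries. In them 91.9% of 99 genes changed 2-fold and 100% of 99 changed 4-fold were called, as were 0.0864% of 12726 unchanged genes. The simulation set every group to the mean siCont levels, changed few genes and gave siCont A no excess. Its rates may therefore not hold for the data. The letters A to C were not used as pairs in the main fit. Residuals of TGFβ and siCont libraries with the same letter correlated at −0.00, −0.02 and −0.16 across genes. With unlike letters they correlated at −0.10 to 0.12. Such values cannot show whether the libraries were paired by culture or handling.

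The members and gene lists, and the rule for the named genes, were chosen with earlier results of these data known. The rule names 9 anchors (SMAD7, FN1, VIM, CDH2, CDH1, ZEB1, SNAI2, SNAI1 and KLF10), the 30 largest rises and falls among called genes that averaged at least 5 CPM without overlap, list members chosen by size of change or level, genes with at most 3 counts in one group and at least 50 in the other, and the 10 largest changes in mean CPM. The second profile was defined after its values were seen: a gene belongs to it where siCont A exceeded the mean of siCont B and C by over 3 SD (counting error and a biological coefficient of variation of 0.067) and the scaled excess made up at least 10% of the siCont mean. List counts without its genes were added after seeing the data.

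The authors' deposited table gives, per the file headers, a log2 fold change, a test score and a p-value for each gene. It was read as a check only. DESeq2 1.42.0, other scalings and filters, a replicate block, the 6 libraries alone and each library left out were run as alternatives. Promoter windows came from RefSeq (GRCh38.p14) and were matched by symbol. Some genes that the rule names are not reported here.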

Additional observations from a re-analysis of the deposited data

Results flagged for a closer look

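The TGFβ effect in Panc1 minus that in A549 is given on the log2 scale. It passed the test for 31% of all genes, for 7 of 9 anchors and for 10 genes chosen for their large differences, whose passing that choice fixed. Of the anchors, SNAI1 (0.89), FN1 (0.64) and CDH1 (1.00) had positive differences, and SNAI2 (−1.01), ZEB1 (−0.44), CDH2 (−1.24) and VIM (−0.68) negative ones. The 5 largest positive differences were PCDH15 (5.16), AGR2 (3.86), CNTN1 (3.69), NUPR1 (3.44) and RHOBTB1 (3.35). PCDH15 had no counts in the A549 TGFβ libraries, so its value is fitted to a group at 0 and is no bound. The 5 largest negative differences were CORO2B (−8.47), KIF26B (−7.27), TIMP3 (−7.09), RASGRP3 (−6.72) and FAM196B (−6.27). FAM196B had no counts in the A549 siCont libraries, and CORO2B, KIF26B and TIMP3 had few there. TIMP3 belongs to the second profile of the siCont libraries of Panc1. The call of TIMP3 in Panc1 was lost without siCont A (−0.56, adjusted p = 0.0635).

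The TGFβ effect after siKLF10 minus that with siCont passed the test for 4.42% of all genes and for 12 of 66 anchors and genes of the largest rises and falls. Another 8 genes were chosen for their large differences, and their passing was fixed by that choice. Positive differences were those of ZEB1 (0.37), TUBA4A (1.70), ADAM19 (0.70), GPRC5B (0.51), PODXL (0.64), NEDD9 (1.37), ANGPTL4 (0.61), GPRC5A (0.40), SERPINE2 (1.59), C20orf160 (2.14), GFPT2 (1.61) and EPAS1 (1.55). Negative differences were those of COL7A1 (−1.08), BMF (−1.26), AGR2 (−0.65), ABCG2 (−0.59), PADI2 (−1.31), TRANK1 (−1.48), SAMD9L (−1.31) and PTPRU (−1.26). NEDD9 and SERPINE2 belong to the second profile. Without siCont A, NEDD9 had a log2 fold change of 2.66 with TGFβ against 2.29 with it, and SERPINE2 of 0.42 (adjusted p = 0.0306), against 0.02 with it (not called). The part of the second profile in their differences was not tested.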

How the results depend on the processing

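The counts of genes called higher and lower with TGFβ, 1844 and 1995, kept within 1.5 times under every alternative run. DESeq2 gave 1662 and 1705, RLE size factors 1840 and 1974, upper-quartile factors 1596 and 2271, library size alone 1595 and 2268, no filter 1964 and 1983, a filter at 1 CPM 1824 and 1966, and the 6 libraries alone 2004 and 2121. With each library left out in turn the counts ranged from 1457 to 1752 and from 1537 to 1780. With the letters as a replicate block they were 1815 and 1961. Of 469 called genes among those named, 387 were called under every alternative and 82 lost their call under at least 1, of which 38 did so without siCont A. None reversed. With 1 library left out, 12 list counts of 5 or more moved by over 1.5 times, and 20 list counts of 4 or fewer did. At 3 libraries a group, genes with few counts were limited by counting error, and the second profile limits what siCont A can show.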
